A study of Mus musculus with 15 samples.

Results

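Histone H3 lysine 9 (H3K9) methylation represses genes and transposable elements, and the RNA levels of 10 genes of this machinery were examined in foetal mouse male germ cells with and without *Tex15*. The 10 genes were taken by name from the 54838 genes counted: *Trim28*, *Setdb1*, *Ehmt1*, *Ehmt2*, *Suv39h1*, *Suv39h2*, *Cbx5*, *Atrx*, *Fam208a* and *Mphosph8*. The study asked whether TEX15, a partner of the PIWI protein MIWI2, is needed for transposable element silencing. Its E16.5 gonocyte libraries address whether the RNA of genes and of transposable elements changes without it. Gonocytes were sorted by tdTomato from testes of Tex15+/-; Miwi2 tdTom/+ controls (3 libraries) and Tex15-/-; Miwi2 tdTom/+ mutants (3 libraries), all on a mixed B6CBAF1/Crl and C57BL/6N background. Every animal in both groups therefore carried a *Miwi2* reporter allele and at least 1 mutant *Tex15* allele, an insertion in exon 5 made by genome editing in 1 founder. The labels do not say whether libraries of a group came from separate animals, so p-values measure only the spread between these libraries, which may be technical.

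H3K9 methylation is laid down by several enzymes with different targets. SETDB1 is brought to transposable elements by TRIM28, which binds KRAB zinc finger proteins, the EHMT1/EHMT2 heterodimer mainly makes the dimethyl mark in euchromatin, and SUV39H1 and SUV39H2 make the trimethyl mark at pericentromeric repeats, where CBX5 (HP1α) binds it. The HUSH complex, which contains FAM208A (TASOR) and the chromodomain protein MPHOSPH8, reads the mark and extends silencing over long young elements such as LINE1, and ATRX places the histone variant H3.3 in heterochromatin with DAXX.

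In the libraries, 4893265 to 5697020 reads were assigned to genes. *Tex15* had 8183, 8315 and 9082 reads in controls and 2338, 1267 and 1310 reads in Tex15-/- libraries, so every library matched its label (log2 fold change −2.35 ± 0.23 SE, edgeR adjusted p = 0.0112). Germ cell markers summed to 2971 to 3111 CPM (gene reads scaled to library size with TMM factors) in controls and 2837 to 3117 CPM in mutants over 10 genes, none of them at 0 in every library. *Nanos2* was near the floor, with 2 to 11 reads a library. Within the list, *Dazl* had 255 to 292 CPM in controls and 204 to 238 CPM in mutants. *Sycp3* had 21.2 to 31.3 CPM in controls and 14.5 to 19.2 CPM in mutants. The groups of the other listed markers overlapped, and 13.2% of all genes tested had groups that did not. Somatic cell markers, 35 genes of Sertoli, Leydig, interstitial, endothelial and blood cells, summed to 166 to 228 CPM in controls and 169 CPM in Tex15-/- replicate 1, but to 2746 CPM in replicate 2 and 792 CPM in replicate 3. The interstitial list held most of the sum in replicates 2 and 3, 1813 and 425 CPM. Endothelial markers were at 210 CPM in replicate 2, but at 58.2 CPM in replicate 3 they lay within the controls (56.8 to 60.2 CPM). Of the 35 markers, *Insl3* and *Hba-a1* were at 0 in all controls. The same 2 mutant libraries had fewer uniquely aligned reads outside annotated exons, 21.2% and 28.6% against 34.9% to 39.8% in the other 4 libraries. In such bulk samples, fewer cells of a type and less RNA per cell cannot be told apart.

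All 10 genes were expressed in control gonocytes, at levels that differed widely. Levels between genes were compared as normalised CPM per kilobase of merged exon, and percentiles give the place among the genes tested that had an annotated exon length. *Ehmt2*, the catalytic H3K9 mono- and dimethyltransferase also called G9a, was highest at 112 ± 14.9 CPM per kb (SD, n = 3), at percentile 98.6. *Mphosph8* followed at 104 ± 3.84 CPM per kb (percentile 98.5) and *Trim28* at 61.5 ± 7.30 CPM per kb (percentile 97.1). These HUSH, corepressor and G9a genes thus sat among the highest expressed genes of the cells. *Cbx5* reached 23.3 ± 2.41 CPM per kb, *Setdb1* 18.2 ± 1.98 CPM per kb and *Atrx* 13.1 ± 0.81 CPM per kb, at percentiles 91.0, 88.2 and 83.3. *Ehmt1* (8.38 ± 0.53 CPM per kb), *Suv39h2* (7.98 ± 1.33 CPM per kb) and *Fam208a* (5.84 ± 1.18 CPM per kb) were lower, at percentiles 74.6, 73.5 and 65.7. *Suv39h1* was lowest at 2.60 ± 0.11 CPM per kb, percentile 42.2, and was the only member below percentile 60. The median over the 10 genes was 15.6 CPM per kb, against 3.38 CPM per kb over all genes tested with such a length.

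**Figure D1:**
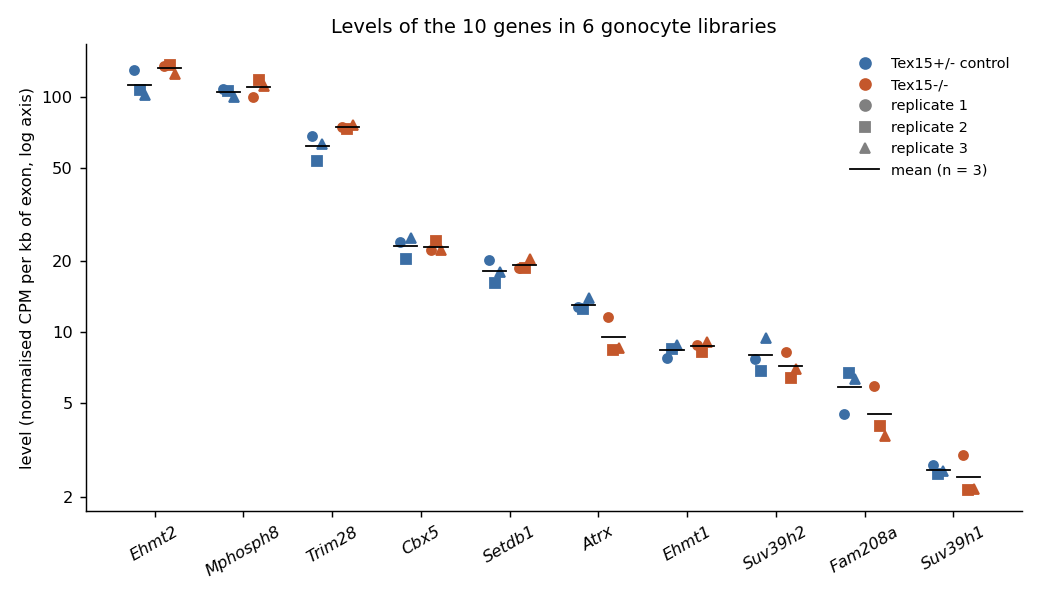
Level of each of the 10 genes in each gonocyte library, as normalised CPM per kb of merged exon on a log axis, ordered by the control mean; symbols give the replicate and bars the mean of 3 libraries. *Ehmt2* and *Mphosph8* sit at about 100 CPM per kb, *Suv39h1* at 2 to 3 CPM per kb, and *Atrx* and *Trim28* are the genes whose groups do not overlap.

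Of the 9 pairs of neighbours in this order, the control ranges of 2 overlapped. *Ehmt2* was nevertheless above *Mphosph8* within each of the 3 controls and in 6 of 6 libraries, by a small margin in control replicates 2 and 3. *Ehmt1* was above *Suv39h2* in 2 of 3 controls and 5 of 6 libraries, and this pair could not be ordered beyond its spread. The partners of a complex were not at equal level. Per kb, *Ehmt1* stood at 0.060 to 0.087 of *Ehmt2* in the 3 controls, *Fam208a* at 0.042 to 0.063 of *Mphosph8*, and *Trim28* at up to 3.48 times *Setdb1*. The order depends on the length used. With the longest transcript in place of merged exons, *Atrx* (10275 bp in place of 21757 bp) rose from 6th to 4th place, and the median of the 10 genes was 22.9 CPM per kb.

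None of the 10 genes was called changed in Tex15-/- gonocytes. At an adjusted p under 0.01 in edgeR's quasi-likelihood test, 0 of 10 members were called, against 0 of 16311 genes tested (0%), a threshold that *Tex15* itself missed. DESeq2 called 14 genes, none of them a member. At an unadjusted p under 0.05 there were 2 of 10 members, 1 higher (*Trim28*) and 1 lower (*Atrx*), where 9.20% of all genes passed. With DESeq2 it was 3 of 10, with *Ehmt2* the further one, where 4.02% of the 42445 genes in that fit, made without the filter on low counts, passed. In 2 of 10 members, the same ones, all mutant libraries lay outside the control range, where 13.2% of all genes did so. Log2 fold changes were above 0 in 5 members and below 0 in 5, with a median of 0.02 against −0.00031 over all genes. The 95% intervals of the 10 fold changes spanned 0.568-fold (*Fam208a*, lower bound) to 1.42-fold (*Trim28*, upper bound).

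**Figure D2:**
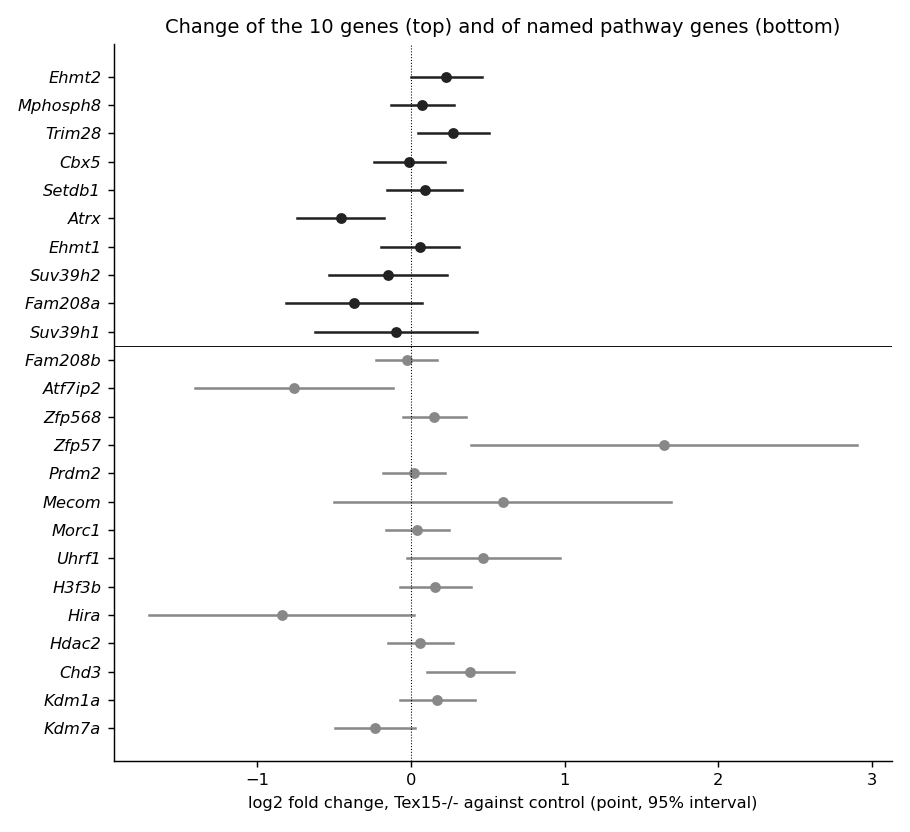
Log2 fold change of Tex15-/- against control with its 95% interval (edgeR) for the 10 genes (top, dark) and for the 14 genes of the wider pathway named by rule (bottom, grey). Among the 10 genes the intervals of *Atrx* (−0.74 to −0.17) and *Trim28* (0.05 to 0.51) leave out 0, and none passes the adjusted p.

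*Trim28* (chromosome 7, 12999114 to 13031035 on the plus strand of GRCm38) encodes the corepressor that links KRAB zinc finger proteins to SETDB1. It had 283, 223 and 262 CPM in controls and 311, 302 and 316 CPM in mutants. All 3 mutant libraries were above all 3 controls, by a small margin. The means were 256 ± 30.3 and 310 ± 7.12 CPM (SD, n = 3), and the log2 fold change was 0.28 ± 0.10 SE. The unadjusted p of edgeR was 0.0223 and its adjusted p 0.477. Without control replicate 2, the lowest of the 6, it was 0.19 with an unadjusted p of 0.116 in edgeR. *Setdb1*, the methyltransferase it recruits, had 138, 111 and 124 CPM in controls and 129, 128 and 140 CPM in mutants. These groups overlapped (log2 fold change 0.09 ± 0.11 SE, edgeR adjusted p = 0.802), and the value was 0.17 without control replicate 1 and 0.015 without control replicate 2.

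The log2 ratio of *Trim28* to *Setdb1* reads within a library does not depend on depth scaling. It was 1.03, 1.00 and 1.08 in controls and 1.27, 1.24 and 1.17 in mutants. The mutant ratios all lay above the control ratios, a difference of 0.19 on the log2 scale. The two-sided exact permutation test gave p = 0.1, the smallest value that 3 against 3 libraries allow, and 0.4 after adjustment over the 4 pairs compared.

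*Ehmt2* moved in the direction of *Trim28* but the groups overlapped. It had 711, 585 and 557 CPM in controls and 738, 747 and 687 CPM in mutants, so that control replicate 1 lay between the mutant values. The log2 fold change was 0.23 ± 0.11 SE with an interval of −0.0029 to 0.46, and was 0.35 without control replicate 1 and 0.16 without control replicate 3. The unadjusted p of edgeR was 0.0524 and its adjusted p 0.547. Its partner *Ehmt1*, or GLP, had 63.4, 68.8 and 71.8 CPM in controls and 71.9, 66.7 and 73.8 CPM in mutants, which also overlapped (log2 fold change 0.06 ± 0.12 SE, edgeR adjusted p = 0.879), with 0.013 without control replicate 1 and 0.10 without Tex15-/- replicate 2. The log2 ratio of *Ehmt1* to *Ehmt2* reads differed by −0.18 between mutants and controls (two-sided exact permutation p = 0.3, adjusted 0.4). That difference was −0.33 without control replicate 1 and −0.07 without control replicate 3.

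The SUV39H enzymes and the HP1 reader showed no difference beyond their spread. *Suv39h1* had 66 to 78 reads in controls and 60 to 79 reads in mutants, the lowest counts of the 10 genes, and the interval of its log2 fold change (−0.10) was wide, −0.62 to 0.43. With single libraries left out the value was −0.26 without Tex15-/- replicate 1 to −0.0096 without replicate 2. *Suv39h2* had 33.9, 30.1 and 41.6 CPM in controls and 36.3, 28.2 and 30.8 CPM in mutants, which overlapped (log2 fold change −0.15 ± 0.17 SE, edgeR adjusted p = 0.785), with −0.25 without control replicate 2 and −0.012 without control replicate 3. The log2 ratio of *Suv39h1* to *Suv39h2* reads differed by 0.03 (two-sided exact permutation p = 0.9, adjusted 0.9). *Cbx5* had a narrower interval around 0, a log2 fold change of −0.01 (−0.24 to 0.22), with 185 to 227 CPM in controls and 202 to 221 CPM in mutants. Both *Suv39h1* and *Suv39h2* share exon sequence with genes on the other strand, 14.6% and 9.98% of their merged exons, and the strand setting of the counting was not given in the sources used here.

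*Atrx* (chromosome X, 105797615 to 105929403 on the minus strand of GRCm38), which encodes a SWI/SNF-family remodeller, had the largest fold change of the 10. Controls had 277, 272 and 305 CPM, and mutants had 252, 183 and 187 CPM. All 3 mutants were below all 3 controls, with replicate 1 close to the controls and replicates 2 and 3 well below. The means were 285 ± 17.6 and 207 ± 38.6 CPM (SD, n = 3), and the log2 fold change was −0.46 ± 0.13 SE. The unadjusted p of edgeR was 0.00456 and its adjusted p 0.460. Its percentile per kb was 82.6 to 84.4 in controls and 73.1 to 81.2 in mutants. Without Tex15-/- replicate 1, *Atrx* passed the threshold (log2 fold change −0.61, edgeR adjusted p = 0.00265), where 388 of the 17520 genes tested did so.

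The HUSH subunits had fold changes of opposite sign, neither of which passed the test. *Fam208a* had 61.2, 91.2 and 86.1 CPM in controls and 80.6, 54.3 and 49.7 CPM in mutants, so that replicates 2 and 3 of the mutants were lowest and replicate 1 lay among the controls. The log2 fold change was −0.37 ± 0.20 SE, with an adjusted p of 0.592 in edgeR. It was −0.60 without Tex15-/- replicate 1, with an adjusted p of 0.0491 in edgeR, and −0.23 without replicate 3. In the fit without replicate 1, 23.2% of all genes had an unadjusted p under 0.05 in edgeR. The mutant libraries it keeps are those with more somatic marker RNA. Of the merged exons of *Fam208a*, 12.9% is shared with *Ccdc66* on the other strand, as is 10.7% of those of *Mphosph8* with another gene. *Mphosph8* had 385, 379 and 359 CPM in controls and 360, 423 and 399 CPM in mutants, which overlapped (log2 fold change 0.07 ± 0.09 SE, edgeR adjusted p = 0.803), with 0.15 without Tex15-/- replicate 1 and 0.023 without replicate 2. The log2 ratio of *Fam208a* to *Mphosph8* reads was −2.65, −2.05 and −2.06 in controls and −2.16, −2.96 and −3.01 in mutants. It differed by −0.45 and the groups overlapped (two-sided exact permutation p = 0.2, adjusted 0.4), by −0.73 without Tex15-/- replicate 1 and by −0.30 without replicate 3.

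**Figure D3:**
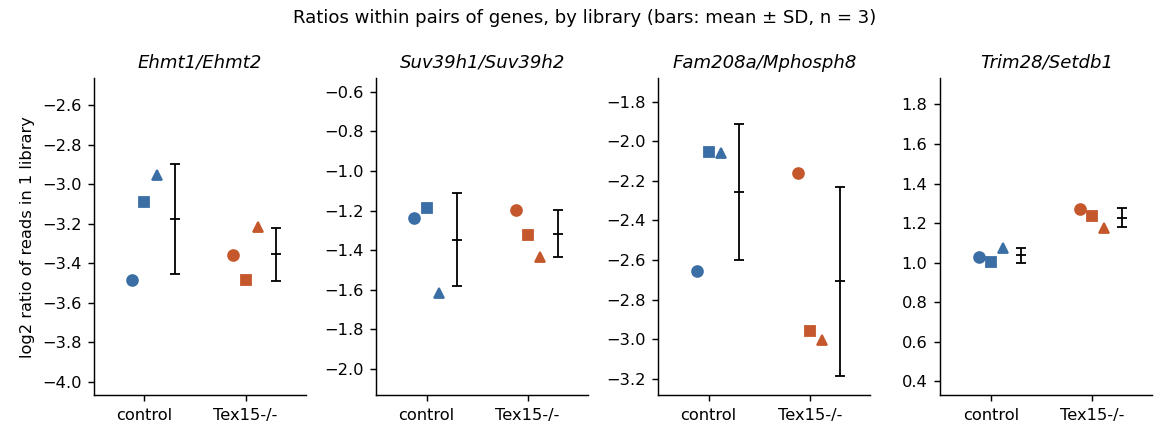
Log2 ratio of reads of 2 partner genes within a library, by group, with the mean ± SD of 3 libraries beside the points. *Trim28*/*Setdb1* is the pair whose groups do not overlap, and in *Fam208a*/*Mphosph8* replicate 1 of the mutants lies with control replicates 2 and 3.

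*Atrx*, *Fam208a* and *Suv39h1* were lowest in the same 2 mutant libraries. Tex15-/- replicates 2 and 3 had 11.3 and 11.4 CPM of *Suv39h1*, against 15.8 CPM in replicate 1 and 13.2 to 14.4 CPM in controls. That difference rests on 62 and 60 reads against 66 to 78 in controls. *Mphosph8* was instead higher in both libraries, at 423 and 399 CPM against 359 to 385 CPM in controls. Such a split was common. With replicate 1 left out, groups did not overlap in 5 of the 10 genes and in 40.5% of all genes tested. Replicates 2 and 3 were the libraries with more somatic marker RNA, with fewer reads outside exons and with less remaining *Tex15* (230 and 249 CPM, against 469 CPM in replicate 1). The part of each of these in the values of the genes was not tested. Both libraries were also left out together, a comparison chosen after seeing the data. In it, the lone mutant library is assumed to vary as the controls do. The log2 fold change was −0.18 for *Atrx*, 0.02 for *Fam208a*, 0.21 for *Suv39h1*, 0.28 for *Trim28* and 0.26 for *Ehmt2*. *Atrx*, *Fam208a* and *Suv39h1* were lowest in the libraries left out, so the shift in their values follows from that choice. Values from the lone mutant library do not tell the genes apart by any effect of somatic RNA, which was not tested. The fold changes of *Trim28* and *Ehmt2* were then as large as with all libraries, and edgeR again called 0 of the 10 genes, with 2 at an unadjusted p under 0.05 beside 3.74% of all genes in that fit.

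**Figure D4:**
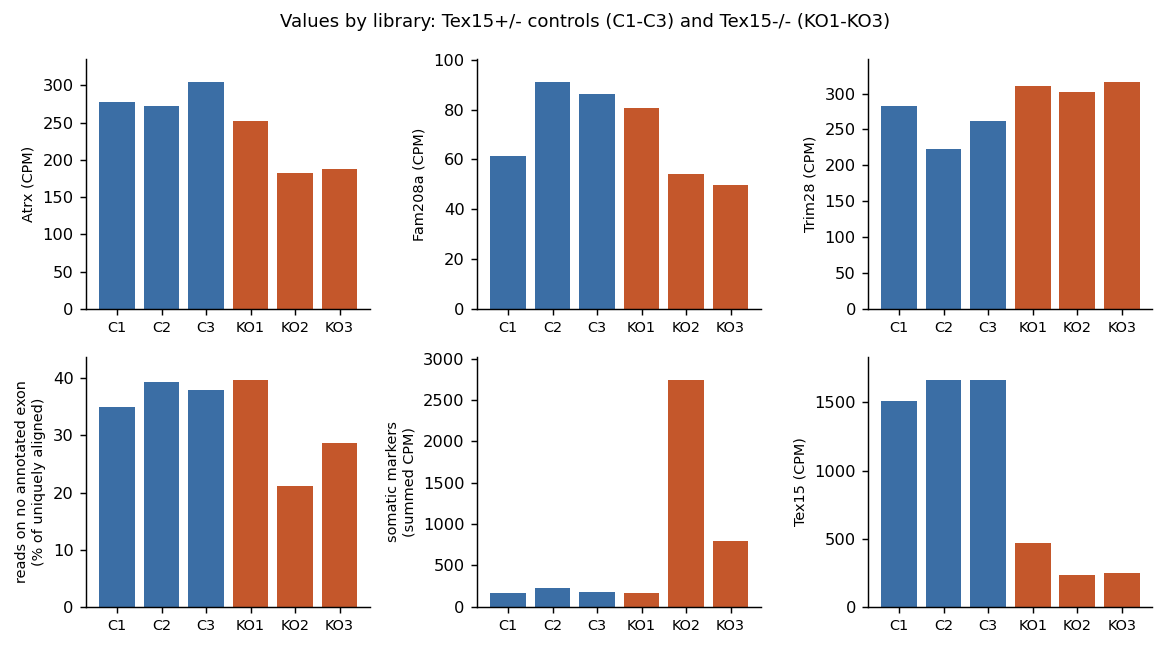
Values in each gonocyte library, with controls C1 to C3 in blue and Tex15-/- KO1 to KO3 in orange: CPM of *Atrx*, *Fam208a*, *Trim28* and *Tex15*, the share of uniquely aligned reads on no annotated exon, and the summed CPM of 35 somatic markers. KO2 and KO3 have the lowest *Atrx* and *Fam208a*, the lowest share on no exon and the highest somatic markers, while *Trim28* is at 302 to 316 CPM in all mutants.

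The spread between replicates was described beside that of all genes tested with a mean CPM between the lowest and the highest of the 10. That range is wide, from *Suv39h1* to *Ehmt2*, and genes within it were not matched by abundance. In controls the median coefficient of variation was 10.6% over the 10 genes and 9.83% over the 8082 genes in the same CPM range. In mutants it was 6.69% over the 10 genes and 13.8% over those genes. The mutant spread exceeded the control spread in 4 of the 10 (*Mphosph8*, *Atrx*, *Fam208a* and *Suv39h1*), and in 67.7% of the genes in that range.

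The wider pathway was read from 7 lists of 53 further genes, of which 50 were tested. edgeR and DESeq2 called 0 of them, and 3 had an unadjusted p under 0.05 in edgeR, 2 higher and 1 lower, a share of 3 in 50 beside 9.20% of all genes tested. Groups did not overlap in 10 of the 50, 6 with all mutants above and 4 with all mutants below, beside 13.2% of all genes tested. Their median log2 fold change was 0.02. In each list, the gene with the highest control level per kb and the one with the largest fold change are described.

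Of 7 HUSH partners and effectors, 6 were tested. In edgeR 1 of them had an unadjusted p under 0.05, where 9.20% of all genes tested did so. *Fam208b*, a paralog of *Fam208a*, was highest in this list with 25.9 CPM per kb and differed by −0.03 on the log2 scale. *Atf7ip2*, a relative of the SETDB1 cofactor ATF7IP, differed most, with 19.4, 23.5 and 18.9 CPM in controls and 18.2, 9.27 and 8.94 CPM in mutants (log2 fold change −0.76 ± 0.29 SE, edgeR adjusted p = 0.479). Its mutants all lay below the controls, with replicate 1 next to them. The log2 fold change was −1.16 without replicate 1 (edgeR adjusted p = 0.0157) and −0.17 without replicates 2 and 3. In the fit without replicate 1, 23.2% of all genes had an unadjusted p under 0.05 in edgeR. Of 9 KRAB zinc finger proteins and TRIM28 relatives, 8 were tested. With all libraries 1 of them had an unadjusted p under 0.05 in edgeR, beside 9.20% of all genes tested. *Zfp568* was highest in this list with 17.8 CPM per kb (log2 fold change 0.15). *Zfp57*, which keeps imprints methylated, differed most but was scarce, with 10, 15 and 15 reads in controls and 16, 85 and 27 reads in mutants (log2 fold change 1.65 ± 0.57 SE, edgeR adjusted p = 0.462). Most of that difference lay in mutant replicate 2: without it the log2 fold change was 0.72.

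The remaining 5 lists held 1 gene at an unadjusted p under 0.05 in edgeR, *Chd3*, beside 9.20% of all genes tested. Of 7 other H3K9 methyltransferases and EHMT partners, *Prdm2* was highest with 23.4 CPM per kb (log2 fold change 0.02), and *Mecom*, with 10 to 33 reads a library, differed by 0.60 (edgeR adjusted p = 0.703), and by 0.33 without Tex15-/- replicate 2 or 0.95 without control replicate 3. Of 6 readers and heterochromatin proteins, *Morc1*, a germ cell repressor of transposable elements, was highest with 78.1 CPM per kb (log2 fold change 0.04), and *Uhrf1*, the partner of DNMT1, differed by 0.47 (edgeR adjusted p = 0.564), and by 0.22 without Tex15-/- replicate 2.

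Of 6 genes for H3.3 and its chaperones, *H3f3b*, which encodes H3.3 and could share reads with near-identical copies, reached 191 CPM per kb (log2 fold change 0.16, and 0.07 without Tex15-/- replicate 2 or 0.27 without replicate 1). *Hira*, the H3.3 chaperone of active chromatin, had 23 to 31 reads in controls and 12 to 18 in mutants, groups that did not overlap (log2 fold change −0.84 ± 0.39 SE, edgeR adjusted p = 0.547). Of 7 corepressor partners, the deacetylase *Hdac2* was highest with 111 CPM per kb (log2 fold change 0.06). The remodeller *Chd3*, a TRIM28 partner, had 181, 169 and 167 CPM in controls and 200, 273 and 202 CPM in mutants (log2 fold change 0.39 ± 0.13 SE, edgeR adjusted p = 0.460). All mutants exceeded all controls, with replicate 2 highest. That library also had the most somatic marker RNA, whose part in the value was not tested. Without replicate 2 the log2 fold change was 0.22. Of 11 H3K9 demethylases (10 tested), *Kdm1a*, or LSD1, was highest with 93.8 CPM per kb (log2 fold change 0.17, and 0.06 to 0.25 with single libraries left out, lowest without Tex15-/- replicate 2 and highest without replicate 1), and *Kdm7a* differed most (log2 fold change −0.23, edgeR adjusted p = 0.578).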

How the data were processed

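RNA-seq libraries of sorted E16.5 gonocytes (3 Tex15+/- and 3 Tex15-/-) were made with RiboGone and the SMARTer Stranded kit. The authors aligned paired reads to GRCm38 with HISAT2 and deposited raw counts per Ensembl gene from HTSeq 0.11.1. Between 61.3% and 67.3% of each table lay in the summary rows that name no gene and was left out. Counts were compared with edgeR 4.0.16 in R 4.3.3: TMM, filterByExpr (minimum count 10, minimum total 15), the quasi-likelihood test and Benjamini-Hochberg adjustment over the 16311 genes tested, with a call at an adjusted p under 0.01. Exon lengths and overlaps came from the GENCODE annotation of GRCm38, which matched all members. Alternatives were total counts without TMM, DESeq2 1.42.0, 2 other filters, edgeR's newer estimate, the replicate number as a block, an adjusted p under 0.05, the longest transcript as length and each library left out. The statistics were tested on simulated counts with the same relative spread set for every gene and library. The changes planted there were larger than those of the 10 genes. That test therefore does not cover changes of their size or the uneven mutant libraries. The members, lists and alternatives were chosen with earlier results of these data known. Named genes are the 10 members, *Tex15* and, per list, the gene with the highest control level and the one with the largest fold change; listed genes with an adjusted p under 0.05 would have been named, and there were 0. The repeat and small RNA tables (9 libraries are of another assay or tissue) were not used; a planned look at small RNAs of the members was dropped, since the rows annotated to genes in those tables name no gene.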

Additional observations from a re-analysis of the deposited data

How the results depend on the processing

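The count of members called was 0 under all settings but the one without Tex15-/- replicate 1 (0 to 1 with single libraries left out), and that of pathway genes was 0 throughout. Members at an unadjusted p under 0.05 numbered 4 without a filter (7.47% of all genes) and 1 to 4 with single libraries left out (4 without control replicate 1, beside 7.49% of all genes, 4 without Tex15-/- replicate 1, beside 23.2%, 2 without Tex15-/- replicate 2, beside 5.71%, and 1 without control replicate 2, control replicate 3 or Tex15-/- replicate 3, beside 5.27%, 5.0% and 6.63%). Members with groups that did not overlap numbered 2 to 5, with 5 without control replicate 1 (26.1% of all genes) and without Tex15-/- replicate 1 (40.5% of all genes), against 20.1% to 21.1% of all genes with any of the other 4 left out. Over all genes, calls numbered 14 with DESeq2, 488 without a filter, 1 with at least 10 counts in every library, 2 with the newer estimate, 3 at an adjusted p under 0.05, 0 to 388 with single libraries left out and 18 without Tex15-/- replicates 2 and 3, a setting added after the data were seen; the cause was not tested. *Tex15* passed the threshold with DESeq2 (−2.34), without a filter (−2.33), with at least 10 counts in every library (−2.37), with the newer estimate (−2.35), without Tex15-/- replicate 1 (−2.74), without Tex15-/- replicate 2 (−2.17) and without Tex15-/- replicates 2 and 3 (−1.78), but not with any of the other 4 libraries left out. The median level was 22.9 CPM per kb with the longest transcript. With the replicate block, 0 members were called, 3 had an unadjusted p under 0.05 (7.27% of all genes) and *Tex15* was at −2.43. The labels do not say whether the shared replicate numbers pair the samples. Deviations of libraries with the same number correlated at −0.14, −0.04 and −0.01, which cannot exclude a shared origin, since the mutant libraries differ widely. With and without the block edgeR called 0 genes, so the calls do not decide this.

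Some fold changes (log2) changed sign, among them *Fam208a* (−0.37 with all libraries) and *Mecom* (0.60), which were not near 0. The others were nearer 0. *Cbx5* was 0.010 with DESeq2, 0.020 without a filter and −0.092 to 0.047 with single libraries left out. *Prdm2* was −0.011 without TMM and −0.0074 to 0.049 with single libraries left out, *Fam208b* 0.00070 without a filter and −0.067 to 0.0097, *Morc1* −0.017 to 0.10 and *Hdac2* −0.012 to 0.15. The difference in the log2 *Suv39h1*/*Suv39h2* ratio between mutants and controls ranged from −0.11 to 0.11 with single libraries left out. Without Tex15-/- replicates 2 and 3, the sign changed for *Suv39h1* (0.21), *Suv39h2* (0.043), *Fam208a* (0.022), *Mphosph8* (−0.057), *Fam208b* (0.039), *Mecom* (−0.41), *Morc1* (−0.052), *H3f3b* (−0.044) and *Hdac2* (−0.094). The cause was not tested. Low counts limit what can be seen for *Suv39h1*, the lowest of the 10 members, and for *Mecom*, with 10 to 33 reads a library.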
